A study of Mus musculus with 6 samples.

Results

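Slc7a11 and 9 further genes of cystine uptake, glutathione and the NRF2 response were followed in tumour monocytes of mice bearing B16F10, a transplanted melanoma line. The 10 genes are Slc7a11, Slc3a2, Gclc, Gclm, Gsr, Gpx4, Nqo1, Txnrd1, Srxn1 and Hmox1, out of 56980 genes in the deposited table. Slc7a11 was chosen by its large difference between the groups in these same libraries, so its values are a description with no test. The other 9 were selected as textbook partners or NRF2 targets with results of these data already known, and the question was whether the Slc7a11 difference extended to them. The cells were sorted as CD11b+, Ly6C-high and Ly6G-. The treatment label was LNP-Gsdme for 3 libraries and LNP-GFP, the control, for the other 3, where LNP is the usual abbreviation of lipid nanoparticle. Gsdme encodes gasdermin E, which forms membrane pores in pyroptotic cell death, and GFP is green fluorescent protein. The genotype was WT and the tumours carried the red reporter mCherry in both groups. The labels give no age, dose or time, and do not say that each library is 1 animal. The p-values therefore rest on the spread among these libraries, which could be technical.

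Slc7a11 is the light chain of the cystine and glutamate exchanger, and Slc3a2 is the heavy chain that carries it to the cell surface. Imported cystine is reduced to cysteine, from which the ligase of Gclc and Gclm starts glutathione synthesis, while Gsr recycles oxidised glutathione and Gpx4 uses it to reduce lipid peroxides. NRF2, encoded by Nfe2l2, is held down by Keap1 and, when freed, binds antioxidant response elements with small MAF proteins, where BACH1 competes as a repressor, best known at Hmox1. Slc7a11 is also a target of ATF4, the factor of the amino acid stress response, and in mice it is known from a coat colour mutant for its role in pigment cells.

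The libraries held 15991826 to 18751784 counts in LNP-Gsdme and 20233559 to 22932095 in LNP-GFP. In bulk RNA of a sorted fraction, fewer cells of a type and less RNA per cell cannot be told apart. Summed markers of Ly6C-high monocytes stood at 9621 to 11764 CPM (counts relative to the scaled library total, the usual CPM unit) in LNP-Gsdme and at 11310 to 12254 CPM in LNP-GFP, and Ly6g, which marks neutrophils, at 0.15 to 0.62 CPM and 0 to 0.37 CPM. The 10 neutrophil markers, Ly6g among them, summed to 231 to 438 CPM in LNP-Gsdme and to 169 to 422 CPM in LNP-GFP. The 12 monocyte markers differed singly, with log2 fold changes from -0.92 to 2.66. Of them 4 rose and 2 fell (edgeR adjusted p below 0.05), against 6.3% and 5.32% of all tested genes. Summed fibroblast markers reached 2365 to 5898 CPM in LNP-Gsdme and 9446 to 10413 CPM in LNP-GFP. LNP-GFP 3 lay between LNP-GFP 1 and LNP-GFP 2 in 61.9% of tested genes. Gsdme itself stood at 3.10 ± 0.381 CPM in LNP-Gsdme and 3.73 ± 0.847 CPM in LNP-GFP (SD, n = 3 each), with a log2 fold change of -0.26 ± 0.22 (SE; edgeR quasi-likelihood adjusted p = 0.450).

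The promoters of the 4 genes shown next were read from RefSeq (build GRCm38.p6, 250 bases before to 50 after the annotated start, 5′ to 3′ on the gene's strand), because they hold matches to the motifs of NRF2 or ATF4. Capitals mark matches, on either strand, to TGACNNNGC, the core of the antioxidant response element, to its other spelling TGAGNNNGC, or to TGATGNAA, the core of the element shared by C/EBP and ATF factors. The windows lie at chr3:50443564-50443863 (minus strand) for Slc7a11, chr3:122245307-122245606 for Gclm, chr10:82858956-82859255 for the window of Txnrd1 with a match, and chr2:152105274-152105573 for Srxn1 (all 3 on the plus strand).
Slc7a11: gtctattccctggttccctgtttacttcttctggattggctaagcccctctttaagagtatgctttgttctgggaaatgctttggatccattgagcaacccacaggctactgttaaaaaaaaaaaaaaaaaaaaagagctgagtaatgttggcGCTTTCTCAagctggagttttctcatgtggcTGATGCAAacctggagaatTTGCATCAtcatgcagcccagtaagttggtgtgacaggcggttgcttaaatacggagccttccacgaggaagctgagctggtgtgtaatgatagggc
Gclm: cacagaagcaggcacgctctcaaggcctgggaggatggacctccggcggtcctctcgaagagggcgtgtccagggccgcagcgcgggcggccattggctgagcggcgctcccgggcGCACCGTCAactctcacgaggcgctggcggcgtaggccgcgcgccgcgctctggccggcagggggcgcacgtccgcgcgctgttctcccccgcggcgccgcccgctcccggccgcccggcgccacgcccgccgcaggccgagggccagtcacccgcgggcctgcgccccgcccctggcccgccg
Txnrd1: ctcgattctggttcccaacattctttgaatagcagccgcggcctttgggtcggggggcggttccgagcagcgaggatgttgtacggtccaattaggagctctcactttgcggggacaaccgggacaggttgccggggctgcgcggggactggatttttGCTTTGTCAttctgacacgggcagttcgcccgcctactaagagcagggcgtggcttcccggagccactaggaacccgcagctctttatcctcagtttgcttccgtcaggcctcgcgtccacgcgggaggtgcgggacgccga
Srxn1: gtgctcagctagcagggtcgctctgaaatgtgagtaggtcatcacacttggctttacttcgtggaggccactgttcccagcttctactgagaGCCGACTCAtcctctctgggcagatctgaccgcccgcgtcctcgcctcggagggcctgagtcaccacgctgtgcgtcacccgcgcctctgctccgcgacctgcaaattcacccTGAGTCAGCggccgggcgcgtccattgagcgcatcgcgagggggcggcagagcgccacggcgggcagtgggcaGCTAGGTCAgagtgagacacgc

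Of the 10 genes, 7 had a promoter window, and Gclc, Gsr and Hmox1 had none. Gclm, Txnrd1 and Srxn1 held TGACNNNGC, which 14% of all 27025 genes with a window held. The match of Gclm began 134 bases and that of Txnrd1 92 bases before the start. Slc7a11 alone of the 7 held TGATGNAA, as TGATGCAA 66 bases before the start and in reverse as TTGCATCA 47 bases before it, a motif in 4.51% of genes. Slc7a11 and Srxn1 held TGAGNNNGC, found in 19.8% of genes and added after the data had been seen. In Srxn1 it read TGAGTCAGC 45 bases before the start. A match is a description of these letters and not a site shown to be bound.

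Slc7a11 (chromosome 3, 49846975 to 50398063, GRCm39) was lower in every LNP-Gsdme library than in any LNP-GFP library. It stood at 147, 107 and 108 CPM in LNP-Gsdme 1 to 3, against 262, 947 and 601 CPM in LNP-GFP 1 to 3. The LNP-Gsdme libraries were close to each other, while LNP-GFP 2 was 3.61 times LNP-GFP 1. The log2 fold change was -2.32 ± 0.45 (SE). Leaving out LNP-GFP 2, the highest library, gave -1.83, and leaving out LNP-GFP 1 gave -2.67. The mean of the LNP-Gsdme libraries was 0.459 times the level of LNP-GFP 1, the lowest control. The annotated locus spans 551 kb and overlaps 5 predicted genes, the largest of which had 123 counts over all libraries, against 45136 for Slc7a11.

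Slc3a2, the heavy chain (chromosome 19, 8684246 to 8700733), did not move with its partner. It stood at 823, 811 and 679 CPM in LNP-Gsdme 1 to 3 and at 709, 772 and 724 CPM in LNP-GFP 1 to 3. The groups overlapped. Its log2 fold change of 0.07 ± 0.10 did not pass (SE; n = 3 per group, edgeR adjusted p = 0.650). Of 4 tested light chains that pair with Slc3a2 in other transporters, 0 rose and 0 fell (edgeR; 6.3% and 5.32% of all tested genes). At an unadjusted edgeR p below 0.05, 0 were higher and 2 lower (16.1% and 15.4%). DESeq2 called 0 and 2 of them (9.64% and 9.39%), and limma-voom 0 and 0 (6.6% and 5.58%). Nothing is read from shares of so few genes. Slc7a8, a carrier of neutral amino acids, had the smallest p, with 389 ± 22.0 CPM in LNP-Gsdme and 462 ± 9.72 CPM in LNP-GFP (SD, n = 3 each; edgeR adjusted p = 0.0681).

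**Figure D1:**
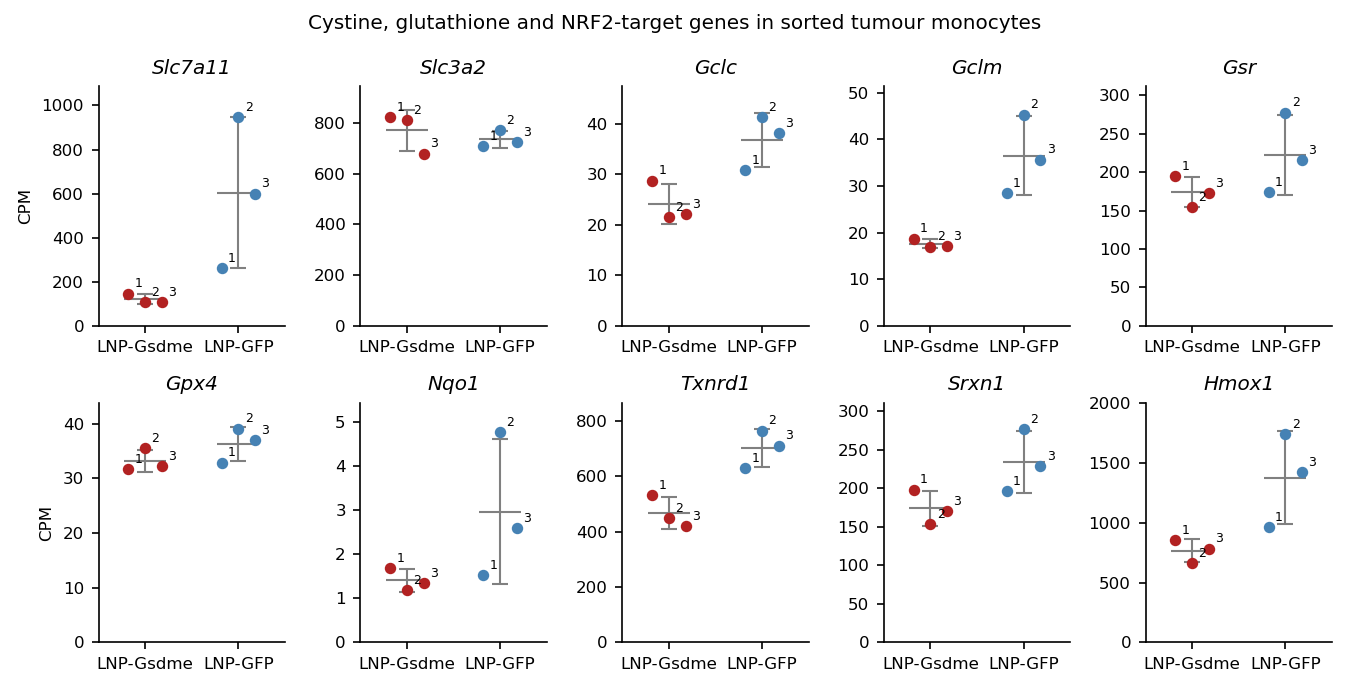
CPM (axes from 0) of the 10 genes in each library, LNP-Gsdme on the left and LNP-GFP on the right of each panel. Points are libraries with their replicate number, and grey bars show the mean and SD of 3. For Slc7a11 the LNP-GFP points run from 262 to 947 CPM and the LNP-Gsdme points from 107 to 147 CPM, while for Slc3a2 the groups overlap.

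The regulatory subunit of the glutathione-synthesising ligase was lower in LNP-Gsdme, and the catalytic subunit did not pass the test. Gclm, the regulatory subunit (chromosome 3, 122039206 to 122064381), stood at 18.7, 17.03 and 17.1 CPM in LNP-Gsdme 1 to 3 and at 28.5, 45.3 and 35.7 CPM in LNP-GFP 1 to 3. The groups did not overlap, and Gclm fell, with a log2 fold change of -1.05 ± 0.17 (SE; 3 libraries per group, edgeR adjusted p = 0.0212). It no longer passed when LNP-Gsdme 1 (adjusted p = 0.0849), LNP-Gsdme 2 (0.0904) or LNP-GFP 3 (0.101) was left out. A transcribed pseudogene, Gm6061, lies inside the Gclm locus with more counts than Gclm (5928 and 3294 over all libraries), and it also fell, by 0.33 on the log2 scale (edgeR adjusted p = 0.0473). The authors' counting could split reads between them, so the level of Gclm is uncertain. Gclc, the catalytic subunit (chromosome 9, 77661817 to 77701767), stood at 28.8, 21.5 and 22.2 CPM in LNP-Gsdme 1 to 3 and at 30.9, 41.3 and 38.1 CPM in LNP-GFP 1 to 3. Its libraries did not overlap either, but LNP-Gsdme 1 lay close to LNP-GFP 1, and the log2 fold change of -0.61 ± 0.16 did not pass (SE; edgeR adjusted p = 0.0560). It passed without LNP-GFP 1 (adjusted p = 0.0308), by DESeq2 (0.00955) and with upper-quartile factors (0.0467).

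Gsr and Gpx4, which recycle and use glutathione, had smaller log2 fold changes than Gclm and Gclc, and neither passed. Gsr, glutathione reductase (chromosome 8, 34142551 to 34188191), stood at 194, 155 and 173 CPM in LNP-Gsdme 1 to 3 and at 174, 277 and 215 CPM in LNP-GFP 1 to 3. The groups overlapped, because LNP-Gsdme 1 lay above LNP-GFP 1, and the log2 fold change was -0.35 ± 0.18 (SE; edgeR adjusted p = 0.229). Gpx4, the selenoprotein that guards membranes against ferroptosis (chromosome 10, 79883000 to 79892273), stood at 31.7, 35.6 and 32.3 CPM in LNP-Gsdme 1 to 3 and at 32.9, 39.1 and 37.0 CPM in LNP-GFP 1 to 3. It had a log2 fold change of -0.13 ± 0.10 (SE; edgeR adjusted p = 0.387), smaller than the spread between libraries.

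Among the remaining NRF2 targets, Txnrd1 fell and Hmox1, Srxn1 and Nqo1 did not pass. Txnrd1, the cytosolic thioredoxin reductase and a selenoprotein (chromosome 10, 82669785 to 82733546), stood at 532, 449 and 421 CPM in LNP-Gsdme 1 to 3 and at 631, 766 and 711 CPM in LNP-GFP 1 to 3. All 3 LNP-Gsdme libraries lay below the LNP-GFP libraries, and Txnrd1 fell, with a log2 fold change of -0.59 ± 0.12 (SE; 3 libraries per group, edgeR adjusted p = 0.0291). The call held without LNP-GFP 1 (0.0215) and was lost when any of the other 5 libraries was left out (adjusted p = 0.0503 to 0.124).

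Hmox1, which breaks down haem (chromosome 8, 75820249 to 75827217), stood at 854, 664 and 783.5 CPM in LNP-Gsdme 1 to 3 and at 965, 1742 and 1424 CPM in LNP-GFP 1 to 3. The groups did not overlap, but LNP-GFP 1 lay nearer to the LNP-Gsdme libraries than to LNP-GFP 2. The log2 fold change was -0.84 ± 0.22 (SE; edgeR adjusted p = 0.0556), and it passed by DESeq2 (0.00223) and without LNP-GFP 1 (0.0156).

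Srxn1, sulfiredoxin, which restores overoxidised peroxiredoxins (chromosome 2, 151947436 to 151953296), stood at 198, 154 and 171 CPM in LNP-Gsdme 1 to 3 and at 197, 277 and 229 CPM in LNP-GFP 1 to 3. LNP-Gsdme 1 and LNP-GFP 1 were level, and the log2 fold change was -0.42 ± 0.15 (SE; edgeR adjusted p = 0.115). Nqo1, the quinone reductase often used as a readout of NRF2 (chromosome 8, 108114857 to 108129838), was rare, with 30, 19 and 26 counts in LNP-Gsdme 1 to 3 and 35, 104 and 52 counts in LNP-GFP 1 to 3. These correspond to 1.69, 1.19 and 1.34 CPM and to 1.53, 4.76 and 2.60 CPM. The groups overlapped, and LNP-GFP 2 lay far above the rest. Its log2 fold change was -1.07 ± 0.44 (SE; edgeR adjusted p = 0.150), and leaving out LNP-GFP 2 gave -0.54. Leaving out LNP-GFP 1 gave -1.38 (adjusted p = 0.0439).

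**Figure D2:**
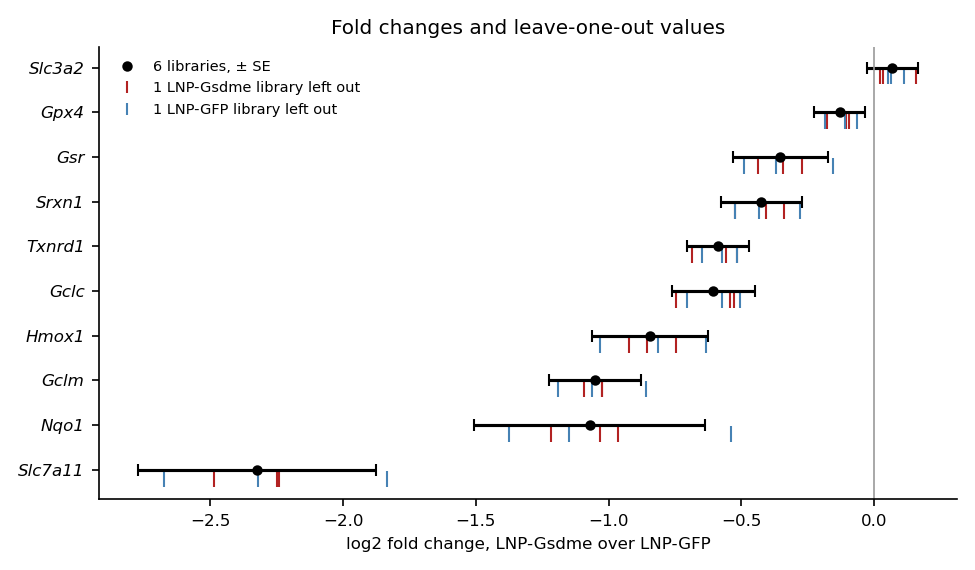
Log2 fold changes of the 10 genes, LNP-Gsdme over LNP-GFP, with their SE (black), and below each the values with 1 library left out (red ticks for LNP-Gsdme, blue for LNP-GFP). Values below 0 mean lower in LNP-Gsdme. Slc7a11 lies at -2.32 and the other 9 genes between -1.07 and 0.07.

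Counted together, 2 of the other 9 genes fell and 0 rose (edgeR adjusted p below 0.05), while over all 16010 tested genes 5.32% fell and 6.3% rose. At an unadjusted edgeR p below 0.05, 6 of the 9 were lower and 0 higher, as were 15.4% and 16.1% of all tested genes. DESeq2 called 4 falls and 0 rises (9.39% and 9.64% of all tested genes), and limma-voom 2 and 0 (5.58% and 6.6%). The median log2 fold change of the 9 was -0.59, against -0.01 over all tested genes. In 4 of the 9, Gclc, Gclm, Txnrd1 and Hmox1, all LNP-Gsdme libraries lay below all LNP-GFP libraries, as they did in 18.2% of all tested genes. Since the genes were chosen with these results known, nothing is read from those shares. All 10 passed the low-count filter. Without LNP-GFP 3, LNP-Gsdme 1 or LNP-Gsdme 2, 0 of the 9 fell, 1 fell without LNP-GFP 2 or LNP-Gsdme 3, and 5 fell without LNP-GFP 1.

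Per gene length, the order of the levels was nearly the same in the groups apart from Slc7a11. On the authors' FPKM scale (counts divided by gene length and library total), Hmox1 was highest of the 10, at 330 ± 40.3 in LNP-Gsdme and 580 ± 159 in LNP-GFP (SD, n = 3 each), followed by Slc3a2 at 117 ± 9.60 and 109 ± 3.73. Gsr, Srxn1 and Txnrd1 came next, at 58.9 ± 6.27, 48.4 ± 5.78 and 41.9 ± 4.28 FPKM in LNP-Gsdme and at 73.7 ± 16.5, 63.7 ± 10.3 and 61.9 ± 5.30 FPKM in LNP-GFP. Gsr lay above Srxn1 in all 6 libraries, while Srxn1 lay above Txnrd1 in every LNP-Gsdme library and in LNP-GFP 2, but not in LNP-GFP 1 and 3. Slc7a11 averaged 7.72 ± 1.31 FPKM in LNP-Gsdme, below Gpx4 (11.9 ± 0.763), and 37.9 ± 21.2 FPKM in LNP-GFP, above Gpx4 (12.8 ± 0.980). Slc7a11 lay below Gpx4 in every LNP-Gsdme library, above it in every LNP-GFP library, and above Gclc in all 6. Gclc, Gclm and Nqo1 were lowest, at 6.15 ± 0.917, 2.14 ± 0.0858 and 0.910 ± 0.154 FPKM in LNP-Gsdme and at 9.19 ± 1.24, 4.35 ± 0.962 and 1.88 ± 1.03 FPKM in LNP-GFP.

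**Figure D3:**
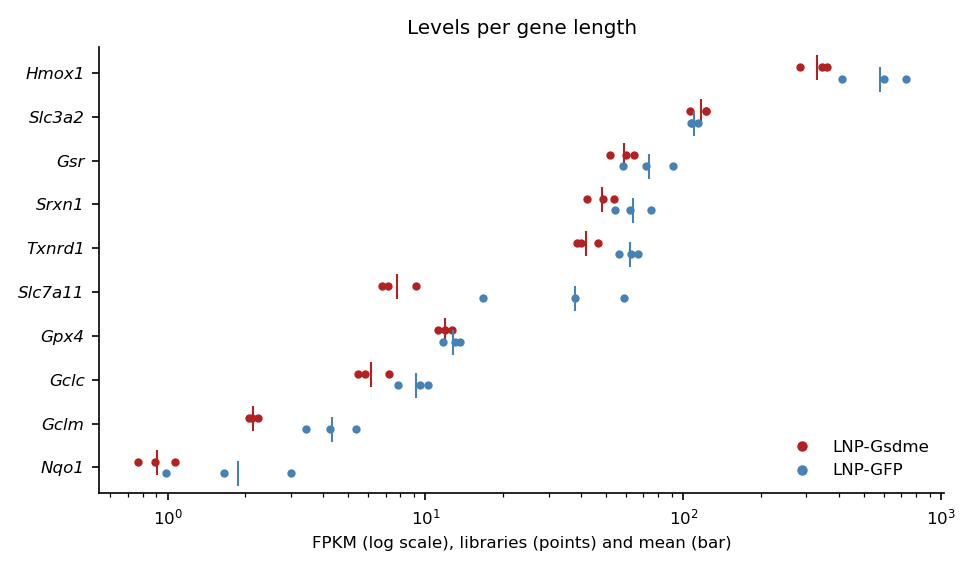
FPKM of the 10 genes on a log scale, LNP-Gsdme (red) above LNP-GFP (blue) in each row, with points for libraries and bars for their mean. Slc7a11 averages 7.72 FPKM in LNP-Gsdme and 37.9 FPKM in LNP-GFP, and changes place with Gpx4 in the order.

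The 10 genes also shared an order among the LNP-GFP libraries. In all 10, LNP-GFP 1 was lowest, LNP-GFP 3 lay between and LNP-GFP 2 was highest, an order that 30.7% of all tested genes showed. The step between LNP-GFP 1 and LNP-GFP 2 was 3.61-fold for Slc7a11, 3.12-fold for Nqo1, 1.81-fold for Hmox1, 1.59-fold for Gclm and 1.09-fold for Slc3a2. All 10 melanoma markers had the same order, and so did 8 of 9 tested neutrophil markers, while 0 of 7 NK cell and 0 of 8 T cell markers had it. It appeared in 3 of 12 Ly6C-high monocyte, 5 of 11 fibroblast and 3 of 7 conventional dendritic cell markers. The counts were 1 of 8 for endothelial, 0 of 9 for macrophage and 0 of 1 for tested B cell markers. The genes of each library are measured together, so these orders share their libraries, and they are given as a description.

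The sum of melanoma markers was 133, 183 and 785 CPM in LNP-Gsdme 1 to 3, against 354, 1902 and 1140.3 CPM in LNP-GFP 1 to 3. The groups overlapped, since LNP-Gsdme 3 lay above LNP-GFP 1. Slc7a11 stood at 108 CPM in LNP-Gsdme 3 and 262 CPM in LNP-GFP 1, and Gclm at 17.1 and 28.5 CPM. Of the 10 melanoma markers none passed the edgeR test, their median log2 fold change was -1.66, and none was at 0 in all libraries. The sum of fibroblast markers did not overlap between the groups (the ranges above), and 6 of 11 fell by edgeR, against 5.32% of all tested genes. Neutrophil markers summed to 438, 301 and 231 CPM in LNP-Gsdme and to 169, 422 and 291 CPM in LNP-GFP, and the groups overlapped. NK cell markers summed to 686, 612 and 509 CPM in LNP-Gsdme and to 521, 127 and 314 CPM in LNP-GFP. The mitochondrial share of counts was 1.30 to 1.61% in LNP-Gsdme and 2.02 to 2.41% in LNP-GFP. The part of these cell types and of RNA quality in the differences of Slc7a11 and its partners was not tested.

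**Figure D4:**
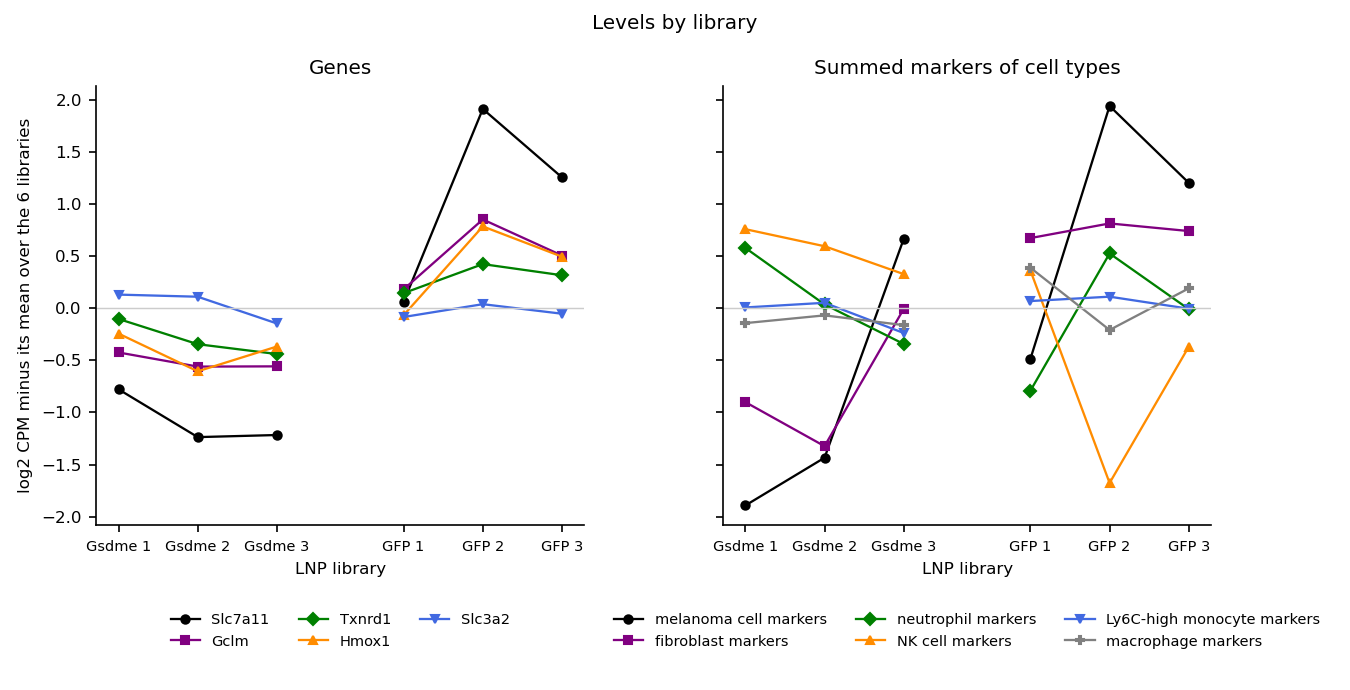
Log2 CPM of 5 of the genes (left) and of summed cell type markers (right) in each library, minus the mean over the 6 libraries, with LNP-Gsdme libraries left of LNP-GFP libraries. Lines join libraries of a group only to guide the eye. Slc7a11 is at 108 CPM in LNP-Gsdme 3 and 947 CPM in LNP-GFP 2, where the summed melanoma markers are at 785 and 1902 CPM.

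The genes with the profile most like that of Slc7a11 were not among the other 9. Likeness was the root mean square difference of log2 CPM over the 6 libraries, each gene centred on its mean, among 8648 genes with a symbol and at least 10 CPM. The values were not scaled, so likeness depends on the size of the fold change as well as on the order of libraries. None of the other 9 had a log2 fold change below -1.07, so their distance in part restates their smaller fold changes. The nearest were Nrp2, a co-receptor for semaphorins and VEGF (0.24), Ptges, a prostaglandin E synthase (0.27), Slc7a2, a carrier of cationic amino acids (0.36), Emp1, an epithelial membrane protein (0.37), and Rai14, an actin-associated protein (0.39). Nrp2 stood at 53.3, 49.0 and 58.6 CPM in LNP-Gsdme 1 to 3 and at 128, 323 and 228 CPM in LNP-GFP 1 to 3. Its groups did not overlap, with LNP-Gsdme below, as in 18.2% of all tested genes. Nothing is read from this, since it was picked for its likeness to Slc7a11. Of the other 9 genes, Gclm came nearest among those at 10 CPM or more (0.67, place 73), followed by Hmox1 (0.74, place 132) and Gclc (0.88, place 399). Nqo1, below 10 CPM and so given no place, lay nearer than Gclm, at 0.64. Slc3a2 was the farthest (1.23, place 3939).

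The regulators of NRF2 did not move one way. Of 13 tested, Bach1 and Mafk rose, Bach2 fell and 10 did not pass by edgeR, by which 6.3% of all tested genes rose and 5.32% fell. DESeq2 (9.64% and 9.39%) and limma-voom (6.6% and 5.58%) also called 2 rises and 1 fall. This list was chosen with results known, and nothing is read from these shares. Bach1, Mafk and Bach2 no longer passed in 5, 4 and 3 of 15 alternatives. Bach1, the repressor that competes with NRF2, rose to 503 ± 25.1 CPM in LNP-Gsdme, against 345 ± 45.2 CPM in LNP-GFP (SD, n = 3 each; log2 fold change 0.54, edgeR adjusted p = 0.0293). Mafk, a small MAF partner of both factors, stood at 253, 287 and 291 CPM in LNP-Gsdme 1 to 3 and at 183, 206 and 199 CPM in LNP-GFP 1 to 3 (log2 fold change 0.50 ± 0.09 SE; edgeR adjusted p = 0.0218). Bach2, a related repressor best known in lymphocytes, fell by 1.06 ± 0.14 on the log2 scale (SE; edgeR adjusted p = 0.0129) and was at 7.71 ± 1.02 CPM in LNP-Gsdme and 16.1 ± 1.77 CPM in LNP-GFP (SD, n = 3 each). Nfe2l2 itself stood at 419, 434 and 296 CPM in LNP-Gsdme 1 to 3 and at 334, 311 and 328 CPM in LNP-GFP 1 to 3 (edgeR adjusted p = 0.315). Keap1, its inhibitor, averaged 45.3 ± 5.12 CPM in LNP-Gsdme and 38.9 ± 6.30 CPM in LNP-GFP (SD, n = 3 each; edgeR adjusted p = 0.324).

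Of 17 other NRF2 targets tested, 4 fell, 0 rose and 13 did not pass by edgeR, by which 5.32% of all tested genes fell and 6.3% rose. At an unadjusted p below 0.05, 7 were lower and 1 higher (15.4% and 16.1% of all tested genes). DESeq2 called 5 falls and 1 rise (9.39% and 9.64%), and limma-voom 3 and 0 (5.58% and 6.6%). Their median log2 fold change was -0.38. The same shares of all tested genes apply to the lists that follow, and since these lists too were chosen with results known, nothing is read from them. Abcc1, which exports glutathione conjugates, stood at 122, 94.8 and 119 CPM in LNP-Gsdme 1 to 3 and at 186, 239 and 213 CPM in LNP-GFP 1 to 3 (log2 fold change -0.93 ± 0.13 SE; edgeR adjusted p = 0.0146). Cd36, a scavenger receptor for oxidised lipids, had 253, 233 and 273 CPM in LNP-Gsdme 1 to 3 and 625, 403 and 504 CPM in LNP-GFP 1 to 3 (log2 fold change -1.01; edgeR adjusted p = 0.0207). Cd36 was highest in LNP-GFP 1. Summed macrophage markers, at 4327, 4556 and 4269 CPM in LNP-Gsdme 1 to 3 and at 6254, 4134 and 5453 CPM in LNP-GFP 1 to 3, were highest there too, and their part in the Cd36 difference was not tested. Abcc4, another export pump, and Cbr3, a carbonyl reductase, had log2 fold changes of -0.37 and -0.96. Of 6 enzymes that supply NADPH, 0 rose and 0 fell by edgeR, DESeq2 or limma-voom, 0 had an unadjusted p below 0.05, and their median was -0.07. Pgd, of the pentose phosphate pathway, had the smallest p (286 ± 16.6 CPM in LNP-Gsdme and 356 ± 74.0 CPM in LNP-GFP; SD, n = 3 each; edgeR adjusted p = 0.210).

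**Figure D5:**
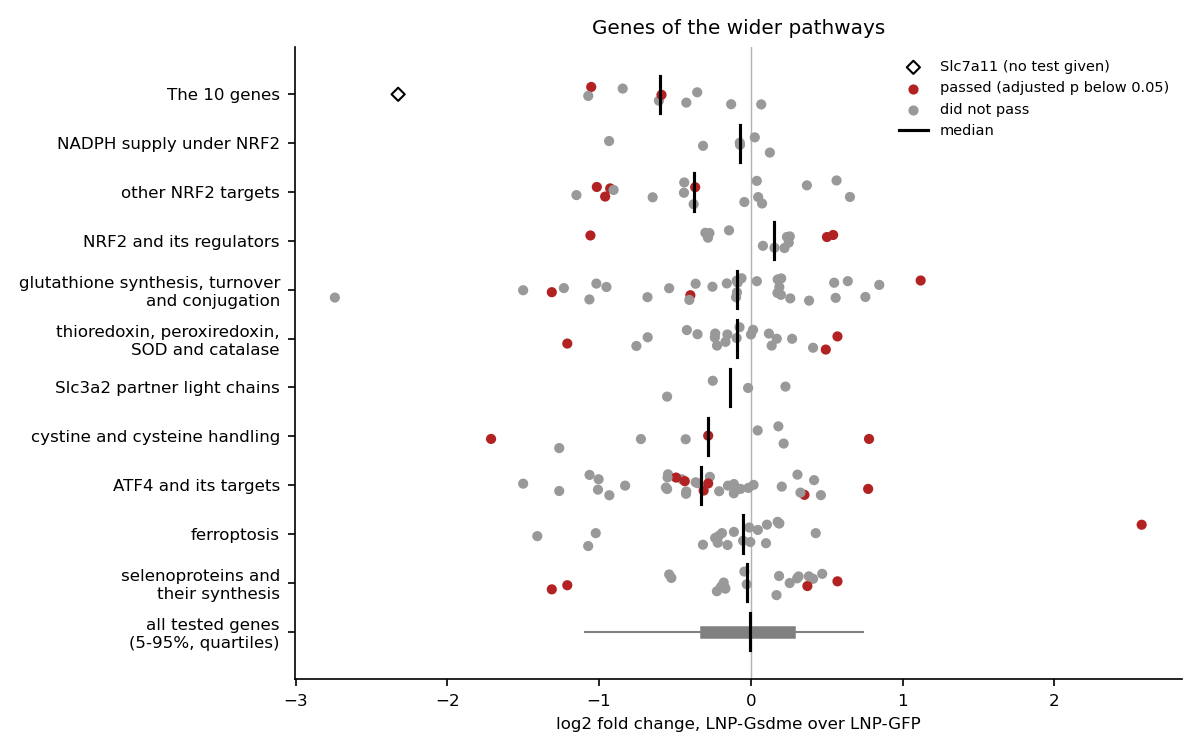
Log2 fold changes (LNP-Gsdme over LNP-GFP) of the 10 genes and of 10 wider lists, with the spread of all tested genes at the bottom. Each point is a tested gene (red where it passed, open diamond for Slc7a11), and black bars are medians, which lie at -0.38 for other NRF2 targets, -0.33 for ATF4 and its targets and -0.01 for all tested genes.

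Of 33 tested genes of glutathione synthesis, turnover and conjugation, 1 rose, 2 fell and 30 did not pass (median log2 fold change -0.09), near the 6.3% and 5.32% of all tested genes. At an unadjusted p below 0.05, 6 were higher and 7 lower, DESeq2 called 1 rise and 6 falls, and limma-voom 1 and 2. Gpx3, a secreted glutathione peroxidase, fell to 31.7 ± 9.68 CPM in LNP-Gsdme, against 78.7 ± 9.87 CPM in LNP-GFP (SD, n = 3 each; edgeR adjusted p = 0.0214), and Glrx5, a mitochondrial glutaredoxin, fell by 0.40 on the log2 scale. Ggt1, which cleaves extracellular glutathione, rose by a log2 fold change of 1.12 at a level of 1.19 ± 0.0620 CPM in LNP-Gsdme and 0.544 ± 0.0973 CPM in LNP-GFP (SD, n = 3 each; edgeR adjusted p = 0.0358). Ggt1 reached the level of the low-count filter in every LNP-Gsdme library, where it was high, but not in LNP-GFP 2 (10 counts). Nothing is therefore read from that p. DESeq2 gave Ggt1 no adjusted p, so the rise it called in this list was another gene. The stricter low-count filter left Ggt1 out, and with no low-count filter it did not pass (edgeR adjusted p = 0.0639). Of 21 thioredoxin, peroxiredoxin, superoxide dismutase and catalase genes, Msrb1 and Sesn1 rose and Txnrd3 fell (log2 fold changes 0.57, 0.49 and -1.21; median of the list -0.09). DESeq2 called 2 rises and 2 falls of these, and limma-voom 2 and 0. Of 21 selenoproteins and genes of their synthesis, Msrb1 and Selenok rose and Gpx3 and Txnrd3 fell, with a median of -0.03. DESeq2 called 3 rises and 3 falls of these, and limma-voom 3 and 1. Msrb1, Gpx3 and Txnrd3 stand in more than 1 of these lists.

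Of 36 tested ATF4 genes, 2 rose, 4 fell and 30 did not pass, where 6.3% and 5.32% of all tested genes rose and fell. A log2 fold change below 0 was seen in 28 of them (median -0.33), against 50.7% of all tested genes. At an unadjusted p below 0.05, 4 were higher and 13 lower. DESeq2 called 3 rises and 9 falls, and limma-voom 2 and 4. Vegfa, an angiogenic factor, Shmt2, of serine and glycine metabolism, Eprs, a tRNA synthetase, and Slc1a5, a glutamine carrier, fell (log2 fold changes -0.44, -0.49, -0.31 and -0.28). Atf3 and Cebpb, stress and myeloid factors, rose, with log2 fold changes of 0.77 and 0.35 (edgeR adjusted p = 0.00882 and 0.0478). Atf4 itself had a log2 fold change of -0.07 (edgeR adjusted p = 0.740). The LNP-GFP order described above, LNP-GFP 1 lowest and LNP-GFP 2 highest, appeared in 25 of the 36, against 30.7% of all tested genes. Of 9 tested genes of cystine and cysteine handling, Ethe1, a mitochondrial sulfur dioxygenase, rose (log2 fold change 0.78) and Slc1a1 and Slc1a5 fell (-1.71 and -0.28). DESeq2 called 1 rise and 3 falls of these, and limma-voom 1 and 1. Slc1a1, which carries glutamate and cysteine, was at only 0.553 ± 0.191 CPM in LNP-Gsdme and 1.84 ± 0.833 CPM in LNP-GFP (SD, n = 3 each). It reached the level of the low-count filter in every LNP-GFP library, where it was high, but not in every LNP-Gsdme library. Nothing is therefore read from its call.

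Of 21 ferroptosis genes, Alox15 rose and 0 fell by edgeR, with a median log2 fold change of -0.05. At an unadjusted p below 0.05, 2 were higher and 3 lower. DESeq2, which gave Alox15 no adjusted p, called 0 rises and 2 falls, and limma-voom called 1 rise and 0 falls. Alox15, a lipoxygenase that oxidises membrane lipids, was rare, at 0.618, 0.873 and 1.34 CPM in LNP-Gsdme 1 to 3 and at 0.174, 0.183 and 0.0999 CPM in LNP-GFP 1 to 3 (edgeR adjusted p = 0.0216). It passed the low-count filter only through the LNP-Gsdme libraries, where it was high, so nothing is read from that p. The stricter low-count filter left it out. Over the 10 wider lists, which hold 171 tested genes, 10 rose and 13 fell, near the 6.3% and 5.32% of all tested genes. These counts were 0 and 0 without LNP-GFP 3, 1 and 0 without LNP-Gsdme 2, 1 and 1 without LNP-Gsdme 1, 5 and 4 without LNP-GFP 2, 8 and 18 without LNP-Gsdme 3, and 12 and 31 without LNP-GFP 1. Markers of fibroblasts, melanoma cells and NK cells had median log2 fold changes of -1.42, -1.66 and 0.73 in the same libraries, and their part in these lists was not tested.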

How the data were processed

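RNA was sequenced in 6 libraries, 3 per group, grouped by the treatment label and numbered by the title. Per the file headers, the authors deposited 1 table of genes with whole-number counts, not normalized, and FPKM. Per the submitters' processing notes the build is GRCm39. For the aligner, the counter and its strand setting, nothing was given in the sources used here. The deposited FPKM equal counts over gene length and library total (checked on 11356 genes) and were used only to compare levels between genes. Per the labels' protocols, DNase-treated RNA went into paired-end TruSeq libraries.

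Counts were tested in R 4.3.3 with edgeR 4.0.16: filterByExpr kept 16010 genes, libraries were scaled with TMM, and the robust quasi-likelihood test was used, with Benjamini-Hochberg adjusted p below 0.05 over all tested genes as the threshold. The script was tested on simulated data. CPM uses TMM-scaled totals, so 1 CPM is 16.0 to 22.9 counts, which limits the precision of rare genes. SE is the log2 fold change divided by the square root of its F value. DESeq2 1.42.0, limma-voom (limma 3.58.1), other factors and filters, a replicate block and each library left out in turn were alternatives. The members and lists were chosen with earlier results of these data known. All 275 listed symbols were matched, 6 through RefSeq synonyms (assembly GRCm38.p6, for names). Of the rows named Ddit3, the one with more counts was used. Genes named from a list are its 3 called members with the smallest p in each direction, or, with no call, its member of smallest p. Cbr3, Nfe2l2, Keap1, Atf4, Ly6g, Gm6061, Gpx1 and Gsta4 were named after their values were seen. Numbers shared between the groups were not taken as pairs in the main test, and whether they pair the libraries was not settled.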

Additional observations from a re-analysis of the deposited data

How the results depend on the processing

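The alternatives moved how many genes passed more than they moved the fold changes. Over all genes 1008 rose and 851 fell, against 1543 and 1504 by DESeq2 and 64 to 1625 and 24 to 1216 with 1 library left out. Of the 9 genes other than Slc7a11, 2 fell, against 4 by DESeq2 and 0 to 5 with 1 library left out. Their median log2 fold change stayed between -0.69 and -0.51, and that of Slc7a11 ran from -2.67 to -1.83. Over the wider lists 10 rose and 13 fell, against 27 falls by DESeq2, 7 falls with library size only, 6 rises with no low-count filter, and 0 to 12 rises and 0 to 31 falls with 1 library left out. The causes were not tested. With the replicate number as a block, 103 genes rose and 52 fell, 0 of the 9 fell, and 0 genes of the wider lists rose or fell. Same-numbered libraries correlated at 0.21, -0.24 and 0.03 in their deviations from the group means, and differently numbered ones at -0.33 to 0.32. With 3 libraries per group these values cannot decide whether the shared number pairs them. With the stricter motifs TGACTCAGC and TGATGCAAT, 0 and 0 of the 7 genes with a promoter window matched. Gclc, Gsr and Hmox1 had no window and were not searched. Nqo1, Ggt1, Slc1a1 and Alox15 had few counts, and depth limits what can be said of them.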

Other observations

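Gpx1, the main cytosolic glutathione peroxidase and a selenoprotein, varied more within LNP-Gsdme than between the groups, which was noticed after its values were seen. It stood at 94.2, 133 and 647 CPM in LNP-Gsdme 1 to 3 and at 498, 349 and 422 CPM in LNP-GFP 1 to 3. LNP-Gsdme 3 was the highest of the 6 libraries and LNP-Gsdme 1 the lowest, and the log2 fold change was -0.54 ± 0.70 (SE; edgeR adjusted p = 0.627). Gsta4, a glutathione transferase that clears lipid aldehydes, had the lowest log2 fold change of the lists (-2.74) and did not pass (edgeR adjusted p = 0.0886). It stood at 0.899, 0.998 and 3.71 CPM in LNP-Gsdme 1 to 3 and at 2.75, 23.0 and 12.4 CPM in LNP-GFP 1 to 3. LNP-Gsdme 1 and LNP-Gsdme 2 had 16 counts each.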
